A study of Mus musculus with 16 samples.

Results

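The AP-1 genes described here are the 8 genes Fos, Fosb, Fosl1, Fosl2, Jun, Junb, Jund and Atf3, chosen by name. Each was found once among the 52636 gene IDs of the count table. A filter on low counts left 12742 genes for testing, and 7 of the 8 were among them. Fosb fell below the filter.

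RNA was sequenced from mouse CRAFR26 cells, whose cell type the labels give as RSC and which carry a c-RAF kinase construct that 4-hydroxytamoxifen switches on. The study asked which genes respond when this kinase activates ERK, and which responses are lost when the signal is blocked. The routine medium held 2 µM IWP2, an inhibitor of WNT secretion, 1000 U/ml of the cytokine LIF and 1 µM of the MEK inhibitor PD03. For 48 h before the experiment, in all groups, 250 nM of the FGF receptor inhibitor PD17 took the place of PD03. Cells of the group 0h received nothing more, those of 2h and 4h received 250 nM tamoxifen for 2 h or 4 h, and those of rev received tamoxifen for 4 h and a MEK inhibitor for 2 h. Each group had 4 libraries, 2 from clone 4 and 2 from clone 8, so 4_1 below stands for library 1 of clone 4. The labels call the clones biological clones, and nothing in them says whether the libraries of a clone came from separate cultures, so p-values measure the spread between these libraries, which may partly be technical. How much MEK inhibitor the rev cells received is not stated, and no group held at 6 h of tamoxifen was analysed here, so rev against 4h includes 2 h of further culture.

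AP-1 is a dimer of leucine zipper proteins that binds DNA and switches genes on or off. JUN proteins can pair with one another, whereas FOS proteins need a JUN partner, so the mix of mRNAs made by a cell bears on the dimers it can form. Fos, Jun and Junb are classical immediate-early genes, whose transcripts rise within minutes of growth factor signalling through ERK and are short-lived. Fosl1 (FRA1) and Fosl2 (FRA2) follow later and last longer, and Jund is made in most cells without stimulation. Atf3, a related factor that pairs with JUN proteins, is best known as a stress-response gene.

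Library totals ran from 4.31 to 10.4 M counts. In each library the 8 features above 1% of counts held 46.7% to 78.9% of the total, so only 1.3 to 5.46 M counts lay outside them. Values below are CPM (counts per M counts of the tested genes, after TMM scaling), and 3 counts were worth 0.21 to 0.908 CPM. In RNA of whole cultures, fewer expressing cells and less RNA per cell cannot be told apart. The AP-1 genes were low: Fos reached at most 193 counts in a library and Jund at most 393. Of the markers of pluripotent cells, 8 of 8 were tested, and their summed level was 818 to 1600 CPM over all libraries. Within this sum Nanog ran from 111 to 722 CPM and Klf4 from 18 to 158, whereas Sox2 had 201 to 241. Endoderm markers summed to 3.06 to 7.18 CPM over all libraries. Mesendoderm markers summed to 1.97 to 3.94 CPM at 0h and 5.01 to 7.39 at 2h. At 4h and rev these sums were 5.53 to 8.64 and 4.48 to 5.75 CPM. What part these changes had in the results was not tested. Fibroblast markers summed to 0.613 to 3.47 CPM and none of the 5 passed the filter, and Col3a1 was at 0 counts in every 0h, 4h and rev library. Trophoblast markers summed to 3.59 to 9.55 CPM at 0h, 3.11 to 12.3 at 2h, 2.14 to 20.3 at 4h and 5.25 to 12.7 at rev, of which Gata3 alone had 1.53 to 16.7 CPM over all libraries, and their part in the results was not tested. On the third principal component of the 500 most variable genes, with 8.57% of the variance, the 0h and 4h libraries had positive scores (3.56 to 11) and the 2h and rev libraries negative scores (-12.1 to -3.27). What made this division was not tested. Of the comparisons below, 4h against 0h and rev against 2h stay on one side of it and the others cross it.

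At 2h against 0h, 5 of the 7 tested AP-1 genes rose (Fos, Fosl1, Fosl2, Jun and Junb) and 0 fell, also 0 with DESeq2 and at an unadjusted p under 0.05. Over all tested genes 9.49% rose and 7.48% fell (edgeR's quasi-likelihood test with Benjamini-Hochberg adjustment over all genes, called at an adjusted p under 0.05). The same 5 genes were higher at 4h than at 0h, against 7.35% of all genes, and Atf3 was lower, against 5.56%. From 2h to 4h, 3 genes fell (Fos, Jun and Atf3), against 6.36% of all genes, and 0 rose, against 5.78%. For rises, DESeq2 also gave 0, and 1 gene had an unadjusted p under 0.05. In clone 4 alone 3 genes were called higher at 4h than at 2h (Fosb, Fosl1 and Fosl2) and 2 lower. The MEK inhibitor group differed from 4h in 3 genes: Fosl1 and Junb were lower, against 5.1% of all genes, and Atf3 was higher, against 4.5%. Compared with 0h, only Fosl2 of the 7 was higher at rev, against 5.51% of all genes, and 0 were lower, against 4.94%, with 0 lower by DESeq2 or at an unadjusted p under 0.05. Compared with 2h, Fos, Jun and Junb were lower at rev, against 1.01% of all genes, and 0 were higher, against 0.769%, with 0 by DESeq2 and 1 at an unadjusted p under 0.05. The comparisons share libraries, so their calls are not independent. Fos, Fosl1 and Fosl2 had at most 9 counts in any 0h library and passed the filter through their higher groups. Jun, with 7 to 14 counts a library at 0h, and Atf3, with 2 to 6 at 4h, lay around or below the filter's minimum count of 10 there. The share of tested members called is therefore a description and no support.

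**Figure D1:**
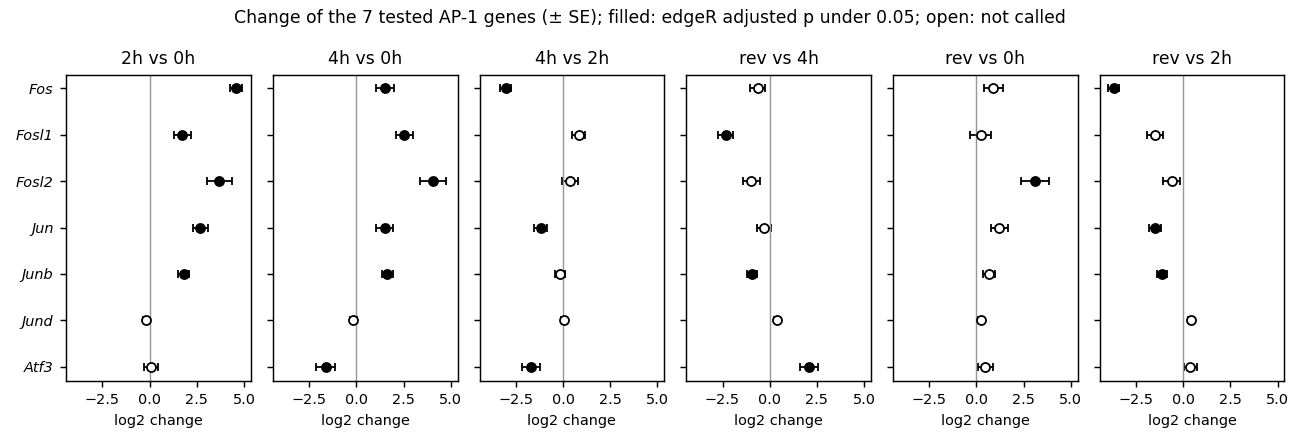
Log2 change of the 7 tested AP-1 genes in 6 comparisons between groups, with the standard error as bars; filled points were called by edgeR at an adjusted p under 0.05 and open points were not. Fos, Fosl1, Fosl2, Jun and Junb are higher at 2h and 4h than at 0h. Jund is called in none of the 6 comparisons (-0.21 to 0.43), and Atf3 is lower at 4h and higher at rev than at 4h.

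Fos encodes c-FOS, the FOS partner that is made first after stimulation (ENSMUSG00000021250, chromosome 12, 85473890 to 85477273, plus strand, GRCm38). Its level at 0h was 1.2, 0.152, 0.415 and 0.718 CPM in libraries 4_1, 4_2, 8_1 and 8_2. At 2h the same order gave 18.3, 26.7, 8.96 and 8.27 CPM. All 4 libraries at 2h lay above all at 0h, and both clone 4 libraries lay above both of clone 8. By 4h the values were 1.6, 4.06, 0.804 and 1.53 CPM, and at rev 1.36, 1.46, 0.908 and 1.02 CPM. The 4h range overlapped that of 0h, and the rev range lay within that of 4h. On the log2 scale Fos rose by 4.58 at 2h (SE 0.34, edgeR adjusted p 6.63e-08) and then fell by 3.04 from 2h to 4h (SE 0.28, edgeR adjusted p 1.09e-05). These changes were 5.16 and -3.16 in clone 4 alone and 3.95 and -2.96 in clone 8 alone. At 4h Fos was still above 0h by 1.53 (SE 0.48, edgeR adjusted p 0.0387), with 3 of 4 libraries above all of 0h. This residual rise was called in 11 of 16 fits that left out 1 library. It was lost without any of 0h 4_1, 4_2 or 8_1, or 4h 4_2 or 8_2 (log2 change 1.02 to 1.76, adjusted p 0.0586 to 0.141), without the clone covariate (adjusted p 0.168) and in clone 8 alone (1, adjusted p 0.313, against 2 in clone 4 alone). Between 4h and rev the log2 change of Fos was -0.64 (95% interval -1.44 to 0.15, edgeR adjusted p 0.347), and against 0h it was 0.89 at rev (interval -0.09 to 1.87, edgeR adjusted p 0.273). Compared with 2h, Fos was lower at rev by 3.68 (log2 change -3.68, SE 0.3, edgeR adjusted p 2.36e-07), with no overlap of the groups.

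The promoter sequences of Fos, Jun and Junb are shown because these genes rose at 2h and their windows hold a match to a motif searched. Fosl2 also rose, and its window holds none. The RefSeq table of promoters on GRCm38.p6 holds 7 of the 8 genes, each from 250 bases before the start site to 50 bases after it, 5′ to 3′ on the gene's strand. Capitals mark matches on either strand to any of 6 motifs searched. These were the CArG box bound by SRF, the cAMP response element TGACGTCA, the AP-1 sites TGACTCA and TGACATCA, the ETS site CCGGAAGT and the TATA box TATAAA, of which only the CArG box can contain another, TATAAA. They were found in 1.63%, 1.79%, 5.2%, 3.62%, 3.89% and 13.6% of all 32851 promoters of this length.
Fos, chr12:85473640-85473939, plus strand: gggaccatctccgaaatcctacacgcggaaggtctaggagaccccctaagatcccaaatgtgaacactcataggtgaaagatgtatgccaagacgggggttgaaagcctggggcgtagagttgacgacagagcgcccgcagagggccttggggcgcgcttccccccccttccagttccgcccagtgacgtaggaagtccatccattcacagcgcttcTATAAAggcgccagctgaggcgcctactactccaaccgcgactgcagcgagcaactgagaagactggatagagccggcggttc
Jun, chr4:95052173-95052472, minus strand: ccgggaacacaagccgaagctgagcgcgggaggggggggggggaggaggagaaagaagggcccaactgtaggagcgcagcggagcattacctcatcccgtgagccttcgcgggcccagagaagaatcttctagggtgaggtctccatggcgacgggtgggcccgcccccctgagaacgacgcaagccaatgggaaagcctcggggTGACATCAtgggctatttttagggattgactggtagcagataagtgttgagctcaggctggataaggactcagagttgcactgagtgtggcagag
Junb, chr8:84978699-84978998, minus strand: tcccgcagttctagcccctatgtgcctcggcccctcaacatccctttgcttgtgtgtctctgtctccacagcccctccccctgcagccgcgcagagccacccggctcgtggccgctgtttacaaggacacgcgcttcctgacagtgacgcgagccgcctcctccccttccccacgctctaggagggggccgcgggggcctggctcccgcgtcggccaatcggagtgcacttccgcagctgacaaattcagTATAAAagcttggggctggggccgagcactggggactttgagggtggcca
The Fos window holds TATAAA beginning 33 bases before the start. It holds no CArG box, but bases more than 250 before the start were not searched, so one may lie there. The Jun window holds TGACATCA beginning 45 bases before the start. In Junb, TATAAA begins at the RefSeq start itself, which lies 30 bases upstream of the gene's start in GENCODE M21. None of the 6 motifs was found in the windows of Fosb, Fosl2, Jund or Atf3, which says only that these letters are not in those 300 bases.

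Fosl1 encodes FRA1, a FOS protein that lacks the transactivation domain of c-FOS (ENSMUSG00000024912, chromosome 19, 5447547 to 5455946, plus strand). At 0h it had 0.599, 0.455, 0.934 and 0.287 CPM in libraries 4_1, 4_2, 8_1 and 8_2, and at 2h 2.85, 1.94, 1.52 and 1.89 CPM. At 4h these were 6.93, 6.35, 1.61 and 1.68 CPM, and at rev 0.678, 0.873, 0.303 and 1.02 CPM. Both induced groups lay above 0h and above rev in all 4 libraries, and at 4h both clone 4 libraries lay above both of clone 8. Fosl1 rose by 1.72 at 2h (SE 0.45, edgeR adjusted p 0.014) and by 2.55 at 4h (SE 0.44, edgeR adjusted p 0.000721), and it fell by 2.34 from 4h to rev (SE 0.41, edgeR adjusted p 0.00124). Between 2h and 4h its log2 change was 0.83 (interval 0.18 to 1.48, edgeR adjusted p 0.107). It was called there without 4h 8_1 (1.09, adjusted p 0.0432) and in clone 4 alone (1.47, adjusted p 0.00129), against -0.06 in clone 8 alone. Against 2h its log2 change at rev was -1.51 (edgeR adjusted p 0.0835), although all 4 rev libraries lay below all of 2h. That change was called with library totals in place of TMM (-1.72, adjusted p 0.011), with no filter (-1.52, adjusted p 0.0031) and in clone 4 alone (-1.59, adjusted p 0.0408). At rev it differed from 0h by 0.22 (interval -0.88 to 1.32, edgeR adjusted p 0.852). The call at 2h was lost without 0h 4_1 or 4_2 (1.44 to 1.59, adjusted p 0.052 to 0.0605), without the clone covariate (adjusted p 0.0682) and in clone 8 alone (1.35, adjusted p 0.0524). In clone 8 alone the changes at 4h (1.29, adjusted p 0.152) and from 4h to rev (-1.02, adjusted p 0.336) were not called either. Fosl1 shares 57.2% of its exon length with Ccdc85b on the opposite strand. The strand setting of the counting is not given in the sources used here, so reads of the 2 genes may not be told apart. Ccdc85b changed by -0.87 at 2h and -0.39 at 4h against 0h and by -0.24 from 4h to rev, none of them called (edgeR adjusted p 0.0558, 0.449 and 0.697).

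Fosl2 encodes FRA2 (ENSMUSG00000029135, chromosome 5, 32135801 to 32157842, plus strand). The 0h libraries 4_1, 4_2, 8_1 and 8_2 held 1, 3, 3 and 0 counts. At 2h Fosl2 had 5.19, 8.02, 0.988 and 1.33 CPM, at 4h 13.9, 8.64, 0.402 and 0.459 CPM, and at rev 4.4, 2.81, 0.606 and 1.92 CPM. All 2h and rev libraries lay above all of 0h, whereas at 4h the clone 8 libraries, with 4 and 3 counts, lay at the edge of the 0h range of 0 to 0.455 CPM. The log2 change was 3.7 at 2h (SE 0.68, edgeR adjusted p 0.00131) and 4.07 at 4h (SE 0.67, edgeR adjusted p 0.000485). Because the 0h group held 7 counts in all, the ratio of its depth-scaled summed counts was also taken, and it was 12.4 at 2h and 20.9 at 4h, with 95% exact intervals from 5.83 and from 9.9 that cover counting error only. Fosl2 was higher at rev than at 0h by 3.1 (SE 0.74, edgeR adjusted p 0.0116), with 4 of 4 libraries above all of 0h. Of these, rev 8_1 held only 2 counts, fewer than the 3 of 0h 4_2. Its 0.606 CPM lay below the 0.908 CPM that 3 counts were worth in that shallow library. The call at rev was lost without 0h 4_1 or 4_2 (2.69 to 2.95, adjusted p 0.0547 to 0.0657). Without the clone covariate none of the 3 calls against 0h held (adjusted p 0.0816 at 2h, 0.0517 at 4h and 0.183 at rev). In clone 8 alone Fosl2 was called at 2h (2.6, adjusted p 0.0171) and at rev (2.97, adjusted p 0.0209) but not at 4h (1.18, adjusted p 0.535). Between 2h and 4h the log2 change of Fosl2 was 0.37 (interval -0.43 to 1.16, edgeR adjusted p 0.582), with a called rise of 0.83 in clone 4 alone (adjusted p 0.0192) and -1.42 in clone 8 alone (adjusted p 0.15). Between 4h and rev its log2 change was -0.97 (interval -1.84 to -0.1, edgeR adjusted p 0.179), -1.7 in clone 4 alone and 1.79 in clone 8 alone. Without rev 8_2 it was called (-1.38, adjusted p 0.0456).

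Fosb, the gene of FOSB (ENSMUSG00000003545, chromosome 7, 19302696 to 19310051, minus strand), was the lowest of the FOS genes in counts. Its libraries held 0 to 4 counts at 0h, 4 to 9 at 2h, 2 to 21 at 4h and 0 to 2 at rev. The means were 0.277 ± 0.277 CPM at 0h, 0.667 ± 0.336 at 2h, 1.27 ± 1.25 at 4h and 0.228 ± 0.264 at rev (SD, n = 4). At 4h the clone 4 libraries averaged 2.29 CPM and the clone 8 libraries 0.254 CPM. With no filter on low counts, which tested 31994 genes, its log2 change was 1.43 at 2h and 2.06 at 4h against 0h and -2.87 from 4h to rev (edgeR adjusted p 0.143, 0.00794 and 0.000133). Fits with and without the filter do not give like p-values. For Fos at 2h the edgeR adjusted p was 1.29e-56 without it and 6.63e-08 with it, at nearly the same log2 change. The clone 8 libraries held 2 and 2 counts of Fosb at 4h and 2 and 0 at rev. The ratio of depth-scaled summed counts of 4h to 0h was 4.62 (95% exact interval 2 to 12.4). In clone 4 alone Fosb passed the filter and was called higher at 4h than at 2h (1.45, edgeR adjusted p 0.0383).

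**Figure D2:**
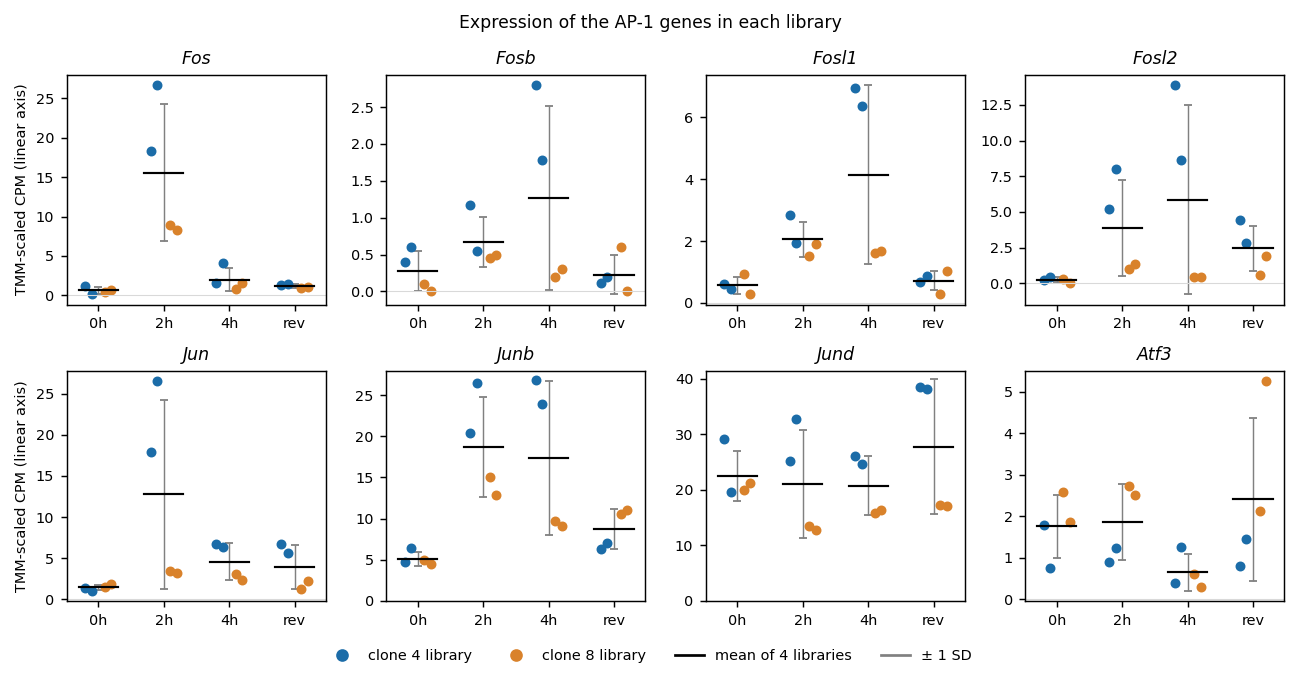
TMM-scaled CPM of the 8 AP-1 genes in each of the 16 libraries by group, with the mean (black line) and SD (grey bar) of the 4 libraries of a group; each panel has its own linear axis. Of the groups sampled, Fos is highest at 2h with 8.27 to 26.7 CPM. The clone 4 libraries lie highest for Fosl1 and Fosl2 at 4h, and Jund stays between 12.8 and 38.5 CPM in all groups.

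Jun encodes c-JUN, the JUN protein that activates most strongly (ENSMUSG00000052684, chromosome 4, 95049034 to 95052222, minus strand, a single exon). At 0h it had 1.4, 1.06, 1.45 and 1.87 CPM in libraries 4_1, 4_2, 8_1 and 8_2, and at 2h 17.9, 26.5, 3.42 and 3.15 CPM. At 4h the values were 6.67, 6.35, 3.02 and 2.3 CPM and at rev 6.66, 5.63, 1.21 and 2.17 CPM. Every 2h and 4h library lay above every 0h library, and at 2h the clone 4 libraries were far above those of clone 8. Jun rose by 2.68 at 2h (SE 0.4, edgeR adjusted p 0.000184), fell by 1.19 from 2h to 4h (SE 0.33, edgeR adjusted p 0.0256) and was 1.5 above 0h at 4h (SE 0.45, edgeR adjusted p 0.0341). It was lower by 1.48 at rev than at 2h (SE 0.33, edgeR adjusted p 0.0249). Between 4h and rev its log2 change was -0.29 (interval -1.04 to 0.46, edgeR adjusted p 0.684), and at rev against 0h it was 1.21 (interval 0.31 to 2.11, edgeR adjusted p 0.097). The last was called in clone 4 alone (2.32, adjusted p 8.7e-05), against 0.2 in clone 8 alone, and without 0h 8_2 (1.6, adjusted p 0.0423). The change at 4h was not called in clone 8 alone (0.74, adjusted p 0.233), nor was the fall from 2h (-0.27, adjusted p 0.606). The 4h call was lost without 0h 4_1 or 4_2 or 4h 4_2 or 8_1 (adjusted p 0.0511 to 0.149). The fall from 2h to 4h was lost without any of the 4 clone 4 libraries at these times (adjusted p 0.0568 to 0.124), and the call of rev against 2h without 2h 4_1 or 4_2 or rev 4_1, 4_2 or 8_1 (adjusted p 0.0534 to 0.132). Without the clone covariate these 3 calls were lost too (adjusted p 0.243, 0.201 and 0.432), whereas the rise at 2h held. Of Jun's exon length 7.28% is shared with Junos on the opposite strand, which had 22 counts in all libraries together.

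Junb encodes JUNB, which activates more weakly than c-JUN and can oppose it (ENSMUSG00000052837, chromosome 8, 84974484 to 84978718, minus strand). At 0h it had 4.79, 6.37, 4.98 and 4.45 CPM in libraries 4_1, 4_2, 8_1 and 8_2, and at 2h 20.4, 26.5, 15 and 12.9 CPM. At 4h the values were 26.8, 23.9, 9.65 and 9.04 CPM, and at rev 6.32, 6.98, 10.6 and 11.1 CPM. All induced libraries lay above all of 0h. At rev the clones changed places, and the clone 8 libraries were the higher ones. Junb rose by 1.8 at 2h (SE 0.28, edgeR adjusted p 0.000356) and by 1.64 at 4h (SE 0.3, edgeR adjusted p 0.00113), calls that each clone alone also gave (2.03 and 2.16 in clone 4, 1.55 and 0.98 in clone 8). Between 2h and 4h its log2 change was -0.16 (interval -0.65 to 0.33, edgeR adjusted p 0.712). It was called lower in clone 8 alone (-0.57, adjusted p 0.0204), against 0.13 in clone 4 alone. The fall from 4h to rev was 0.94 over both clones (log2 change -0.94, SE 0.28, edgeR adjusted p 0.0371). In clone 4 alone the log2 change was -1.92 (adjusted p 1.57e-08), whereas in clone 8 alone it was 0.22 (adjusted p 0.569). This call was lost without any of the 4 clone 4 libraries of 4h and rev (-0.69 to -0.85, adjusted p 0.103 to 0.185) and without the clone covariate (adjusted p 0.148). Compared with 2h, Junb was lower at rev by 1.1 (SE 0.27, edgeR adjusted p 0.0371), with 4 of 4 rev libraries below all of 2h. That call was lost without 0h 8_2, any 2h library, or rev 4_1 or 4_2 (adjusted p 0.0512 to 0.198), without the clone covariate (adjusted p 0.25) and in clone 8 alone (-0.35, adjusted p 0.264). Against 0h the log2 change at rev was 0.69 (edgeR adjusted p 0.171), 0.23 in clone 4 alone and 1.2 in clone 8 alone (adjusted p 0.554 and 0.000816). Junb shares 7.52% of its exon length with Prdx2 on the opposite strand, which was lower at 2h by 0.4 (log2 change -0.4, edgeR adjusted p 0.0165).

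Jund encodes JUND, the JUN protein of resting cells (ENSMUSG00000071076, chromosome 8, 70698949 to 70700616, plus strand, a single exon). It had 22.5 ± 4.52 CPM at 0h, 21 ± 9.69 at 2h, 20.7 ± 5.33 at 4h and 27.8 ± 12.2 at rev (SD, n = 4). No comparison of groups was called over both clones. Its log2 change was -0.21 at 2h (interval -0.53 to 0.11) and -0.16 at 4h (interval -0.49 to 0.17), with edgeR adjusted p of 0.418 and 0.593, so these intervals leave room for neither a doubling nor a halving. At rev against 4h it was 0.38 (interval 0.06 to 0.71, edgeR adjusted p 0.157), and at rev against 2h 0.43 (interval 0.12 to 0.75, edgeR adjusted p 0.2). The clones differed in level: at 2h the clone 4 libraries averaged 29 CPM and the clone 8 libraries 13.1 CPM, and at rev 38.3 and 17.2 CPM. Within single clones 3 changes of Jund were called: it was lower at 2h than at 0h in clone 8 (-0.65, edgeR adjusted p 0.000648), and in clone 4 it was higher at rev than at 4h (0.6, edgeR adjusted p 0.00529) and than at 0h (0.68, edgeR adjusted p 0.00382). Jund shares 52.6% of its exon length with Gm11175 on the opposite strand, which had 0 counts in every library.

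Atf3 (ENSMUSG00000026628, chromosome 1, 191170296 to 191218039, minus strand) had its lowest mean at 4h. It had 1.8, 0.758, 2.59 and 1.87 CPM at 0h in libraries 4_1, 4_2, 8_1 and 8_2, and 0.908, 1.24, 2.74 and 2.52 CPM at 2h. At 4h the values were 0.4, 1.27, 0.603 and 0.306 CPM, from 2 to 6 counts, and at rev 0.791, 1.46, 2.12 and 5.25 CPM. Of the 4h libraries 3 lay below all of 0h and below all of 2h. Atf3 had a log2 change of 0.09 at 2h (edgeR adjusted p 0.907), then fell by 1.71 from 2h to 4h (SE 0.48, edgeR adjusted p 0.0257) and was 1.62 below 0h at 4h (log2 change -1.62, SE 0.51, edgeR adjusted p 0.04). At rev it was above 4h by 2.1 (SE 0.48, edgeR adjusted p 0.00838), and at rev it differed from 0h by 0.48 (interval -0.27 to 1.24, edgeR adjusted p 0.467). In clone 4 alone none of the 3 changes was called (-0.58, -0.77 and 0.68, adjusted p 0.569, 0.499 and 0.488), and in clone 8 alone all 3 were (-2.4, -2.2 and 3.09). The fall from 2h was lost without 2h 4_2, 8_1 or 8_2 or 4h 8_1 or 8_2 (adjusted p 0.0547 to 0.0996). The lower level at 4h against 0h was lost without 0h 4_1 or 8_1, 2h 8_2, or 4h 4_1, 8_1 or 8_2 (adjusted p 0.0503 to 0.131), and the rise at rev without rev 8_2 (1.49, adjusted p 0.0789). Without the clone covariate all 3 calls were lost (adjusted p 0.149, 0.179 and 0.119).

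Levels of different genes were compared as CPM per kilobase of exon. At 0h the order of mean levels was Jund (13.5 ± 2.71 CPM per kb), Junb (2.24 ± 0.365), Atf3 (0.815 ± 0.351), Jun (0.453 ± 0.104), Fosl1 (0.28 ± 0.135), Fos (0.264 ± 0.191), Fosb (0.0444 ± 0.0444) and Fosl2 (0.0249 ± 0.0198; SD, n = 4). Jund lay above Junb, and Junb above Atf3, in every library. The ranges of all later neighbours overlapped, although Atf3 lay above Jun within each 0h library. By 2h the order was Jund (12.6 ± 5.81), Junb (8.13 ± 2.65), Fos (6.61 ± 3.7), Jun (4 ± 3.6), Fosl1 (1.01 ± 0.279), Atf3 (0.86 ± 0.423), Fosl2 (0.401 ± 0.346) and Fosb (0.107 ± 0.0538), and the ranges of each pair of neighbours overlapped. Within each 2h library, however, the order from Jund down to Fosl1 was the same. At 4h Fosl1 (2.04 ± 1.42) followed Jund and Junb, and after it came Jun (1.44 ± 0.705) and Fos (0.85 ± 0.605). The ranges of Junb and Fosl1 did not overlap there, and those of the other neighbours did. Within each 4h library Jund lay above Junb, and Jun above Fos. At rev Jund (16.6 ± 7.31), Junb (3.81 ± 1.07) and Jun (1.23 ± 0.826) had the highest means, with no overlap between Jund and Junb or between Junb and Jun. The RefSeq model of Jund begins 1210 bases upstream of the GENCODE one. With its counts unchanged, its mean over the RefSeq gene length of 2878 bp would be 7.82 CPM per kb at 0h and 7.3 at 2h. At 4h and rev it would be 7.19 and 9.66. At 2h and 4h these values are below the mean of Junb. The counting annotation is not given, so reads from the added bases may be missing from the counts, which would make these values too low.

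The make-up of the family changed with induction. Jund was 72.6% to 80.5% of the summed level per kilobase of the 8 genes at 0h, 36.9% to 38.1% at 2h, 43.8% to 60.7% at 4h and 53.1% to 77.8% at rev. Fos was 0.413% to 2.35% of the sum at 0h and 17.5% to 21.3% at 2h, a narrow range over 4 libraries whose Fos levels in CPM differed widely. Its share was 1.92% to 5.12% at 4h and 1.94% to 2.27% at rev. Fosl1 was 0.852% to 2.79% at 0h and 4.9% to 9.61% at 4h. The FOS genes together amounted to 0.0292 to 0.047 of the JUN genes at 0h, 0.303 to 0.335 at 2h, 0.0823 to 0.222 at 4h and 0.0453 to 0.072 at rev. The ratio at 2h thus lay above all other groups in every library, and at 4h it lay above all 0h and rev libraries. In sums, the FOS genes went from 0.613 ± 0.217 CPM per kb at 0h to 8.13 ± 4.18 at 2h, 3.7 ± 2.66 at 4h and 1.15 ± 0.321 at rev, and the JUN genes from 16.2 ± 2.58 to 24.7 ± 12, 21.4 ± 7.94 and 21.7 ± 7.06 (SD, n = 4). These sums and ratios rest on genes known beforehand to respond, and they are given with no test. All shares, sums and ratios use the GENCODE exon length of Jund. With its counts unchanged, the longer RefSeq length would lower the share of Jund and raise the FOS to JUN ratio in every group.

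**Figure D3:**
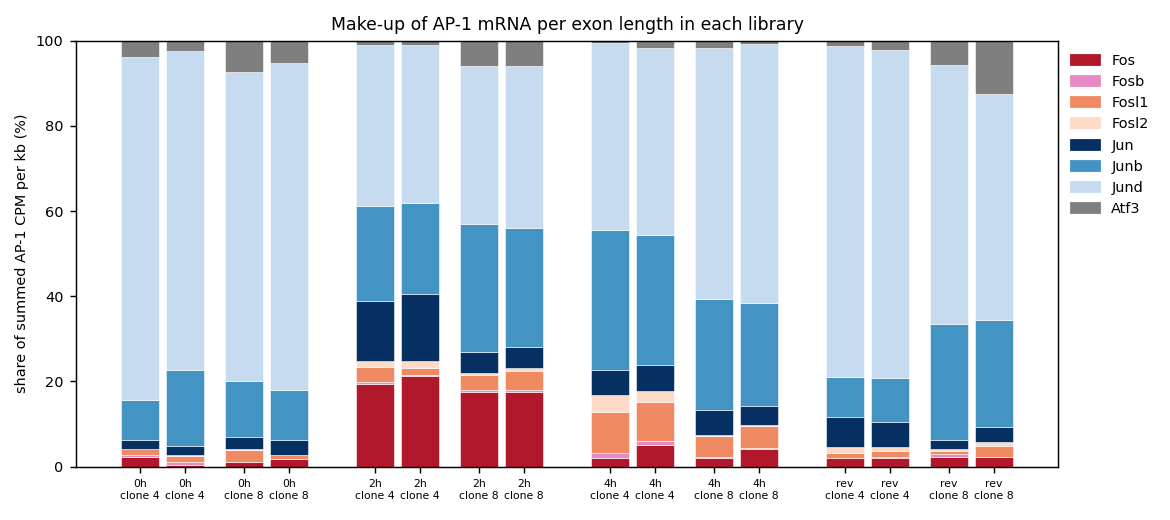
Share of each AP-1 gene in the summed CPM per kilobase of exon of all 8 genes, 1 bar per library (16 libraries, by group and clone). Jund takes 72.6% to 80.5% of the sum at 0h and 36.9% to 38.1% at 2h, where Fos takes 17.5% to 21.3%. Exon lengths are those of GENCODE, and the longer RefSeq length of Jund would lower its share.

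The clones were compared by testing the difference of their changes, where a negative value means a lower change in clone 8. At 2h against 0h this differed for Jun and Jund, against 7.94% of all genes in either direction. Jun rose by 4.17 in clone 4 and by 1 in clone 8 (difference -3.18, SE 0.52, edgeR adjusted p 0.000148). Jund had log2 changes of 0.26 and -0.65 (difference -0.92, SE 0.21, edgeR adjusted p 0.00491). Fos, with 5.16 and 3.95, was not called different (difference -1.23, interval -2.93 to 0.48, edgeR adjusted p 0.422), nor was Junb, with 2.03 and 1.55 (difference -0.49, interval -1.06 to 0.07, edgeR adjusted p 0.315). The call of Jund was lost without 0h 4_2 or 2h 4_2 (-0.72 to -0.62, adjusted p 0.0579 to 0.0939) and with library totals in place of TMM (-0.34, adjusted p 0.548).

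At 4h against 0h the difference was called for Junb, against 5.72% of all genes (difference -1.19, SE 0.3, edgeR adjusted p 0.012). It was lost without 0h 4_1 or 8_1 or 4h 4_1 (-1.02 to -1.09, adjusted p 0.0687 to 0.126) and with library totals (-0.86, adjusted p 0.5). Fosl2 rose by 5.01 in clone 4 and had 1.18 in clone 8, with a difference of -3.86 (interval -6.92 to -0.81, edgeR adjusted p 0.175). The differences of Fosl1 (-2.36, edgeR adjusted p 0.0791) and Jun (-1.69, edgeR adjusted p 0.0761) also had a lower change in clone 8 and missed the threshold. They passed it without 0h 8_2 for Fosl1 (-2.85, adjusted p 0.0452) and without 2h 4_1 for Jun (-1.69, adjusted p 0.0495).

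From 4h to rev the clones differed for Junb and Fosl2, against 13.2% of all genes. Junb changed by -1.92 in clone 4 and 0.22 in clone 8 (difference 2.16, SE 0.26, edgeR adjusted p 8.6e-07), and this held with each library left out in turn (2.06 to 2.23). Fosl2 changed by -1.7 and 1.79 (difference 3.51, SE 0.76, edgeR adjusted p 0.00165). Without rev 8_2 the difference was 2.21 with an adjusted p of 0.413, so the call for Fosl2 rests on that library, which held 15 counts of Fosl2 against 2 in rev 8_1. Fosl1 (2.06, edgeR adjusted p 0.0638) and Atf3 (2.39, edgeR adjusted p 0.0882) were not called, and both were without rev 8_1 (2.41 and 2.72, adjusted p 0.0403 and 0.0465). The library rev 8_1 was the smallest outside the abundant features, with 1.3 M counts, and the part of its depth in these differences was not tested.

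**Figure D4:**
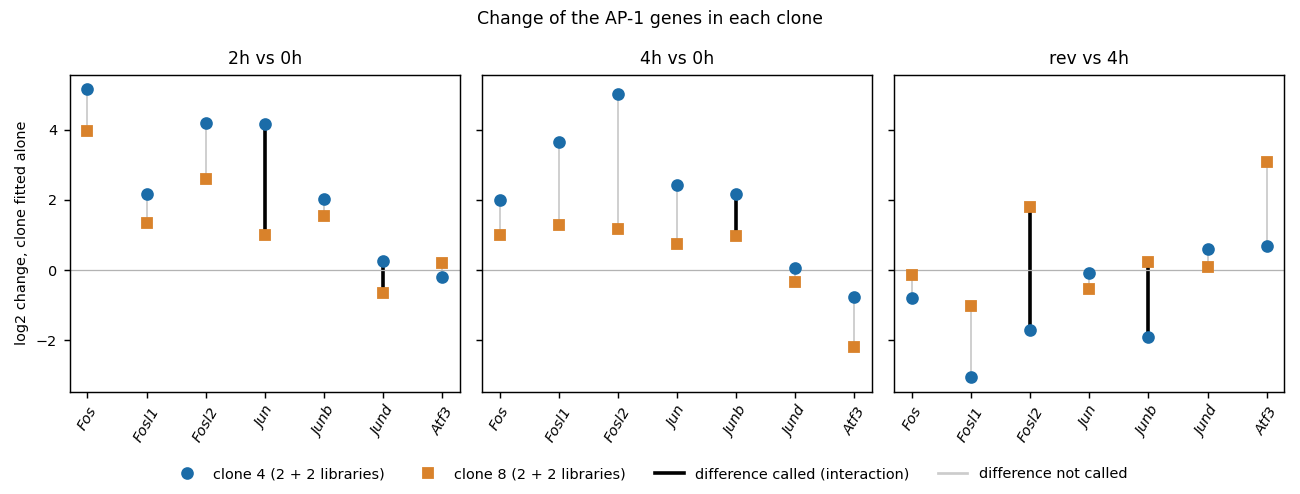
Log2 change of the 7 tested AP-1 genes with clone 4 (circles) and clone 8 (squares) fitted alone, for both induced groups against 0h and for rev against 4h; black lines join clones whose changes differed by edgeR's interaction test at an adjusted p under 0.05. Jun at 2h (4.17 and 1), Junb at 4h (2.16 and 0.98) and Junb and Fosl2 at rev are joined in black, as is Jund at 2h.

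Other genes of the pathway were taken from a list of 30 partners and regulators: dimer partners of the ATF, MAF, BATF and JDP2 families, SRF and its ETS cofactors, the JNK kinases and proteins that turn AP-1 over. Of these 23 were tested. At 2h against 0h, 7 rose and 2 fell, against 9.49% and 7.48% of all genes, and the list's median log2 change was 0.26, against 0 over all genes. Maff, a small MAF protein gene that serum and stress induce, went from 1.25 ± 0.382 to 7.24 ± 5.61 CPM (SD, n = 4). On the log2 scale this was 2.27, with an SE of 0.33 and an edgeR adjusted p of 0.000143. Elk4, which encodes an ETS cofactor of SRF and a target of ERK, rose by 0.68, and Mapk8, which encodes the JUN kinase JNK1, by 0.58 (edgeR adjusted p 0.00511 and 0.00675). Ddit3, the gene of the stress factor CHOP, fell by 0.82 (edgeR adjusted p 0.0091). With library totals in place of TMM, only 1 gene of this list was called, and Elk4, Mapk8 and Ddit3 lost their calls (adjusted p 0.0662, 0.125 and 0.169).

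At 4h against 0h, 4 of the 23 partner genes rose and 1 fell (median 0.13), against 7.35% and 5.56% of all genes. Maff, named here after its values were seen since it lay below the count minimum for naming, was higher by 2.16 (edgeR adjusted p 0.000333), and single libraries were not left out for it at 4h. Elk4 was higher by 0.55, Srf, whose protein binds the Fos promoter, by 0.49 and Atf1 by 0.33, and Jdp2, a repressor that pairs with JUN proteins, was lower by 0.9 (log2 change -0.9; edgeR adjusted p 0.0257, 0.0218, 0.0174 and 0.0224). In clone 4 alone Srf changed by 0.89, and in clone 8 alone by 0.06, where it was not called (adjusted p 0.823). Each of the 4 calls of Elk4, Srf, Atf1 and Jdp2 was lost without 0h 4_1, without 4h 4_2, with library totals and without the clone covariate. Elk4 had adjusted p of 0.0609 to 0.0942 without either of them, Srf 0.0719 to 0.0938 without these or 0h 4_2 or 4h 4_1, Atf1 0.0564 to 0.0669 without these or 4h 8_2, and Jdp2 0.0569 to 0.086 without these or 4h 4_1. From 4h to rev, 1 partner gene rose, against 4.5% of all genes, and 1 fell, against 5.1%: Mapk8 was higher by 0.46 and Atf7 lower by 0.45 (log2 change -0.45; edgeR adjusted p 0.0424 and 0.021). Mapk8 lost its call without any 1 of 9 libraries (0h 8_2, 2h 8_1 and 8_2, and all of 4h and rev but their 8_2; adjusted p up to 0.152) and Atf7 without 4h 4_1 or 8_2 or rev 8_2 (adjusted p up to 0.0942).

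A list of 30 genes that are AP-1 targets in some cell types was also counted, and 18 of them were tested. At 2h against 0h, 5 of the 18 rose and 2 fell (median 0.31, against 0 over all genes). At 4h, 9 rose and 1 fell (median 0.41, against -0.01 over all genes). Between 4h and rev, 7 fell and 1 rose (median -0.36, against 0). Over all genes, 9.49% rose and 7.48% fell at 2h, 7.35% rose and 5.56% fell at 4h, and 5.1% fell and 4.5% rose between 4h and rev. Plaur, the urokinase receptor gene, rose from 0.796 ± 0.55 CPM at 0h to 7.06 ± 4.33 at 2h and 29.9 ± 32.9 at 4h and was at 2.98 ± 1.03 at rev (SD, n = 4). Its log2 changes were 3.2 at 2h, 4.79 at 4h and -3.09 from 4h to rev (edgeR adjusted p 0.00381, 4.41e-05 and 0.000576). In clone 4 alone the last was -4.1 and in clone 8 alone -0.27, where it was not called (adjusted p 0.774). Hbegf, the gene of an EGF receptor ligand, rose by 1.2 at 2h and 1.5 at 4h and fell by 1.23 at rev (edgeR adjusted p 0.00768, 0.00233 and 0.00981). The fall was lost without 4h 4_1 (-0.95, adjusted p 0.0532). In clone 8 alone neither the rise at 4h (0.47, adjusted p 0.0639) nor the fall (-0.4, adjusted p 0.17) was called, against 2.52 and -1.85 in clone 4 alone. Tgfb1 rose by 2.03 and Vim, the gene of the intermediate filament vimentin, by 1.32 at 4h (edgeR adjusted p 0.000103 and 0.00155). Hmox1, a heme-degrading enzyme gene, rose by 0.89 at 2h (edgeR adjusted p 0.00422).

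Cdkn1a, which encodes the cell cycle inhibitor p21, had a course unlike that of the targets named above. It rose by 0.72 at 2h (edgeR adjusted p 0.00555) and by 1.39 from 4h to rev (edgeR adjusted p 4.62e-05), with means of 30 ± 2.99, 51.2 ± 18.2, 20.4 ± 3.64 and 54.8 ± 9.38 CPM at 0h, 2h, 4h and rev (SD, n = 4). Its high groups are those with negative scores on the third principal component. The target Spp1 also rose at 2h (0.49, edgeR adjusted p 0.0308) and fell from 2h to 4h (-0.55, edgeR adjusted p 0.0248). Its change from 4h to rev was not called (0.45, edgeR adjusted p 0.0691). The partner gene Mapk8 had means of 10.2, 15.5, 11.3 and 15.6 CPM at 0h, 2h, 4h and rev. Tgfb1 fell by 1.01 from 4h to rev (edgeR adjusted p 0.0147), a call lost without 4h 4_1 or rev 4_1 or 4_2 (adjusted p 0.0576 to 0.116) and in clone 8 alone (-0.55, adjusted p 0.375). Without the clone covariate, the calls of Plaur and Hmox1 at 2h and of Plaur, Hbegf and Tgfb1 at rev were lost (adjusted p 0.103, 0.133, 0.0637, 0.0544 and 0.207). Genes low at 0h passed the filter through their higher groups, so these counts describe the lists and support nothing about AP-1 activity.

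The genes whose log2 CPM followed each AP-1 gene most closely over the 16 libraries were looked up among 8580 other tested genes. Fos was followed by Ier2, another immediate-early gene (Pearson r = 0.867), Pik3cb (0.863) and Asah1 (0.862). Fosl1 was followed by Id1 (0.953), Hs3st3b1 (0.935) and Manba (0.923), and Fosl2 by Baz1a (0.952), Arap2 (0.941) and Itgb1 (0.937). The likest genes were Rictor (0.937), Trim36 (0.935) and Ppp1r10 (0.929) for Jun and Rbpj (0.926), Zfp36l1 (0.92) and Arc (0.91) for Junb. For Jund they were Chd3 (0.949), Arrb1 (0.938) and Spaca6 (0.931), and for Atf3 Zfp40 (0.813), Ppfia1 (0.809) and Notch3 (0.784). Among the members, the closest pair was Fosl1 with Junb (0.822), followed by Fosl2 with Jun (0.814). Jund had r of -0.0273 with Junb and 0.0647 with Fos, and Atf3 had r of -0.348 with Fosl1. These libraries share groups, clones and depth, so the correlations are descriptions.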

How the data were processed

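RNA-seq counts of 16 libraries were analysed. Per the labels' protocols, ribosomal RNA was depleted before library preparation. The submitters' processing notes name bcl2fastq 2.19.1, STAR 2.5.3a and the build mm10; the counting program, annotation and strand setting are not given in the sources used here. The authors deposited whole-number counts per Ensembl gene, with no normalization.

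Symbols, coordinates (1-based) and union exon lengths came from GENCODE M21 (GRCm38), which matched 52489 of 52636 IDs; promoters came from RefSeq. edgeR 4.0.16 in R 4.3.3 was run on all genes kept by filterByExpr (minimum count 10, minimum total 15), with TMM scaling, terms for group and clone, and Benjamini-Hochberg adjustment over the 12742 tested genes. Each standard error is the change over the root of its F statistic, and intervals are 1.96 standard errors either side. Clone differences were interaction terms. log2 CPM for correlations used a prior count of 2. DESeq2 1.42.0 and other settings were alternatives.

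Within a clone and group, no library was a copy of the other: chi-square over its degrees of freedom was 1.29 to 4.04. This check cannot tell technical replicates from separate cultures, and other pairs of libraries were not compared by it. The members and gene lists were chosen with earlier results of these data known. From each list the text names, for 2h and 4h against 0h and rev against 4h, the 4 called genes with the largest change and 50 or more counts on average in the higher of both groups. For likeness it names the 3 most correlated named genes with such a mean.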

Additional observations from a re-analysis of the deposited data

Results flagged for a closer look

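Among 32 sets of 4 libraries (8 genes in 4 groups), 1 had a library set apart from the other 3: Fosb at 2h, where library 4_1 had 9 counts and the gap to the next library was 0.864 of the range. Chance flags about 1 set in 20.

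The clone 8 change minus the clone 4 change was called by edgeR's interaction test for Jun (-3.18) and Jund (-0.92) at 2h against 0h, for Junb (-1.19) at 4h against 0h, and for Fosl2 (3.51) and Junb (2.16) at rev against 4h. Over all genes, 7.94%, 5.72% and 13.2% were called in these comparisons.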

How the results depend on the processing

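Over 9 comparisons 26 changes of AP-1 genes were called, and 12 of them were called with each of the 16 libraries left out in turn. DESeq2, removal of features above 1% of counts and no filter on low counts ended none of the 26. With no filter, adjusted p could be far smaller at nearly the same change, as for Fos at 2h, so that setting is a weak check. Library totals in place of TMM ended 2 and a threshold of 0.01 ended 11. Of the calls between groups alone, the omission of the clone covariate ended 13, clone 4 alone 3 and clone 8 alone 9. The last number leaves out Junb at rev against 4h, which also lost its call in clone 8 alone. Library totals shifted the median of all genes by 0.11 at 2h against 0h, -0.14 at 4h against 2h, -0.2 at rev against 4h, -0.24 at rev against 0h and -0.35 at rev against 2h (log2), and no called AP-1 gene changed sign. The 1 reversal was of sign only: Junb at rev against 4h, 0.22 in clone 8 alone and not called there (edgeR adjusted p 0.569). Of 12 correlations between same-numbered libraries 1 was over 0.1 (mean -0.0106), and the main fit did not use the numbers as pairs. The correlations run over all tested genes, so they cannot exclude pairing that touches only some of them. The replicate block ended 6 calls, left 1 AP-1 gene called at rev against 2h and 1 partner gene at rev against 4h, and kept the other counts within 1.5 times.

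Numbers of AP-1 genes called moved as follows. At 4h against 0h there were 3 at an adjusted p under 0.01, 2 without the clone covariate, 2 in clone 8 alone and 3 to 6 with 1 library left out. Without the clone covariate 3 were called at 2h against 0h. At 4h against 2h there were 1 under 0.01, 1 without the covariate, 5 in clone 4 alone (3 higher, 2 lower) and 1 to 3 with 1 library left out. At rev against 4h there were 5 with no filter, 1 without the covariate, 5 in clone 4 and 1 in clone 8. At rev against 0h there were 0 under 0.01, 3 with no filter, 0 without the covariate, 3 in clone 4, 2 in clone 8 and 0 to 2 with 1 library left out. At rev against 2h there were 1 under 0.01, 5 with no filter, 1 without the covariate, 1 in clone 8 and 1 to 3 with 1 library left out. Called clone differences were 1 with library totals and 1 to 2 with 1 library left out at 2h, 0 under 0.01, 0 with library totals and 0 to 2 at 4h, and 1 to 4 at rev. Partner genes called were 1 with library totals at 2h; 1 under 0.01, 1 with library totals, 0 without the covariate and 1 to 5 with 1 library left out at 4h; and 0 under 0.01, 0 with library totals, 0 without the covariate and 0 to 3 at rev. Target genes called were 4 under 0.01, 4 with library totals, 2 without the covariate and 4 to 7 with 1 library left out at 2h; 4 without the covariate at 4h; and 4 under 0.01, 13 with no filter, 1 without the covariate and 4 to 9 at rev. The causes were not tested. For the named partner and target genes these settings were added after seeing the data. With 1 library left out, a lone library of a clone is assumed to vary like the others. The order of mean AP-1 levels per exon length was the same in 4 of 4 groups when scaled to totals outside the abundant features. Scaling cannot change the order within a library, so little could have moved there. Depth limits Fosb (0 to 21 counts a library), the 0h values of Fos, Fosl1 and Fosl2 (0 to 9) and Atf3 at 4h (2 to 6).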
